A study of Mus musculus with 2 samples.

Results

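The miR-29 family of the mouse consists of 4 microRNA (miRNA) genes, Mir29a, Mir29b-1, Mir29b-2 and Mir29c, and all 4 were among the 1973 miRNA genes counted in the hindbrain of newborn mice. They were selected by name, through their Ensembl gene IDs, and lie in a chromosome 6 cluster and a chromosome 1 cluster. MicroRNA-seq was done on total RNA of strain B6NCrl hindbrain at postnatal day 0, from fragments of under 30 nucleotides. The series held 1 group of 2 libraries, replicate 2 from the single hindbrain of pup 3 and replicate 1 from that of pup 1. No treatment, mutation or later age was present, sex was not recorded, and both pups carry 1 donor identifier in the labels. The comparison open to these data was therefore between the chromosome 6 and chromosome 1 genes within each newborn library. Any p-value comes from a sign-flip permutation test over these 2 libraries. It reflects only whether they agree in direction and cannot fall below 0.5.

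A miRNA is cut from a hairpin precursor into a short strand from either arm, called 5p and 3p, and the strand loaded into Argonaute pairs with target mRNAs mainly through its seed, bases 2 to 8. The 3p strand is the usual guide of the miR-29 family. Its known targets include DNA methyltransferases, collagens and, in neurons, pro-apoptotic BH3-only proteins. In mouse brain the family is known to increase as neurons mature after birth, so a newborn hindbrain samples an early stage.

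The mature strands of the 4 genes are shown because their likeness decides which reads a count per gene can hold. They are RefSeq sequences on GRCm38.p6, 5′ to 3′, with the seed in capitals.
miR-29a-3p: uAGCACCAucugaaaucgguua
miR-29b-3p: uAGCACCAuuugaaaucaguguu
miR-29c-3p: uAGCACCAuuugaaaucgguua
miR-29a-5p: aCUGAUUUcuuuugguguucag
miR-29b-1-5p: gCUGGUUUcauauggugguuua
miR-29b-2-5p: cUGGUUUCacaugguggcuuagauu
miR-29c-5p: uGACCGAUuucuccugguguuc

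All 3p strands had the seed AGCACCA, and in the RefSeq table no mature miRNA of another gene had it. Mir29b-1 and Mir29b-2 encode an identical miR-29b-3p, so a full-length read of it matches both chromosomes. Counted from 1 at the 5′ end of the miRNA, miR-29a-3p and miR-29c-3p differed by 1 base, C10U. The miR-29b-3p and miR-29c-3p strands had the same first 17 bases and parted only at their ends, shown in capitals.
miR-29b-3p: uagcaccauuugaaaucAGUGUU
miR-29c-3p: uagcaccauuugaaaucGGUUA

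The end AGUGUU of miR-29b, linked to nuclear import in human cells, was searched as those letters on the RNA strand. It occurred in 12 of 1679 mature miRNAs (0.715%), of which miR-29b-3p and miR-92b-5p ended in it. The 5p strands differed between all 4 genes and had no seed in common with each other. The miR-29b-2-5p seed was also that of a strand from Mir6338, and the other 5p seeds occurred in no other gene of the table.

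Mir29a (ENSMUSG00000065610, chr6:31062660-31062747) and Mir29b-1 (ENSMUSG00000065604, chr6:31063023-31063093) lie on the minus strand with 275 bases between them (GENCODE M21, GRCm38, the assembly of mm10). Mir29b-2 (ENSMUSG00000065412, chr1:195037040-195037120) and Mir29c (ENSMUSG00000065548, chr1:195037547-195037634) lie on the plus strand with 426 bases between them. Both clusters have the same layout in the direction of transcription, with the miR-29b copy upstream. The chromosome 1 genes lie wholly within the noncoding host gene A330023F24Rik and overlap an exon of it. On the opposite strand they overlap an exon of Cd46, which encodes a complement regulator. On chromosome 6, Mir29b-1 overlapped the noncoding gene Gm27019 by 2 bases, and Mir29a overlapped no other annotated gene. Opposite-strand counts were 0 for all 4 genes in both pups, so no read was counted there on the strand of Cd46.

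The precursors pair up across the chromosomes rather than within them. Mir29a and Mir29c hairpins were 78.0% identical over their alignment and both 88 bases long. Mir29b-1 and Mir29b-2 hairpins were 73.2% identical. Within a cluster, identity was 60.4% on chromosome 6 and 63.2% on chromosome 1. The longest run of identical bases was 25 between the miR-29b hairpins, 22 between Mir29b-1 and Mir29c, 19 between Mir29b-2 and Mir29c, and 14 between Mir29a and Mir29c. Mir29a had the shortest such runs, of at most 14 bases. The predicted folding energies were -34.1 kcal/mol for Mir29a and -34.8 kcal/mol for Mir29c, against -26.3 kcal/mol for Mir29b-1, the shortest hairpin at 71 bases, and -31.1 kcal/mol for Mir29b-2.

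The libraries held 6238680 own-strand miRNA gene counts in pup 3 and 4906127 in pup 1, and levels are counts per 1000000 of these (CPM). The floor that 0 counts leave, at 3 counts of the total, was 0.481 CPM for pup 3 and 0.611 CPM for pup 1. Reads that matched several genomic places were given to no gene, 5639848 in pup 3 and 4601400 in pup 1. These pools were 762 and 870 times the summed counts of the miR-29 genes. Of the Hox-linked markers of hindbrain and spinal cord, Mir10a, Mir10b and Mir196b averaged 28396, 14983 and 17.6 CPM. Of 9 neuronal markers 7 were detected, led by Mir137 at 11351 CPM. Mir124a-2 and Mir124a-3 were not detected, and Mir124a-1 averaged 9.44 CPM. The part of reads at several genomic places in these low counts was not tested. Detection was 2 CPM in both pups and was reached by 407 of the 1973 genes. Intervals and floors cover counting error only, at 95%, and take each read as a molecule.

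Mir29a and Mir29c held nearly all counts given to the 4 genes in both newborn hindbrains, and the counts of the 2 miR-29b copies were near the detection level. Mir29a had 3632 counts in pup 3 and 2563 in pup 1, or 582 and 522 CPM. Mir29c had 3715 counts in pup 3 and 2658 in pup 1, or 595 and 542 CPM. Both pups therefore held nearly as much of the chromosome 6 gene as of the chromosome 1 gene.

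Mir29b-1 had 13 counts in pup 3 and 33 in pup 1, or 2.08 and 6.73 CPM. Mir29b-2 had 46 counts in pup 3 and 38 in pup 1, or 7.37 and 7.75 CPM. The miR-29b values of both pups lay far below every Mir29a and Mir29c value, with no overlap.

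As means with the spread between pups, Mir29a was at 552 ± 42.3 CPM and Mir29c at 569 ± 38.0 CPM (SD, n = 2 pups each). Mir29b-1 was at 4.41 ± 3.28 CPM and Mir29b-2 at 7.56 ± 0.263 CPM (SD, n = 2 pups each). In order of level Mir29c, Mir29a, Mir29b-2 and Mir29b-1 followed each other. Neither the first pair nor the last pair differed beyond the spread of these levels between pups. That spread includes any shift that both genes of a pair share in a library, and ratios within each pup are given below. The family took 0.119% of own-strand counts in pup 3 (exact Clopper-Pearson interval 0.116 to 0.121) and 0.108% in pup 1 (0.105 to 0.111).

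**Figure D1:**
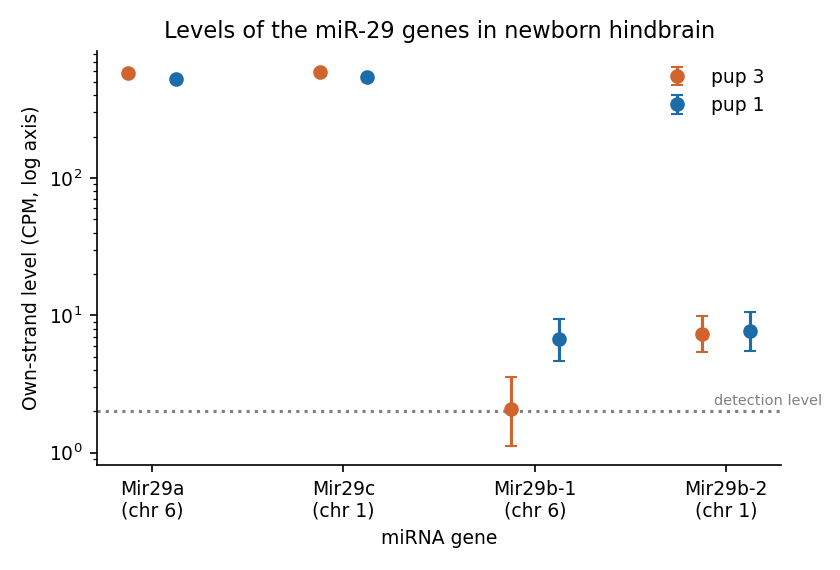
Own-strand level of each miR-29 gene in CPM on a log axis, for pup 3 and pup 1. Points are single libraries, bars are exact Poisson 95% intervals of the count (hidden by the points for Mir29a and Mir29c), and the dotted line is the detection level of 2 CPM. Mir29a and Mir29c lie between 522 and 595 CPM, the miR-29b copies between 2.08 and 7.75 CPM.

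In counts given to a gene, the chromosome 6 and chromosome 1 clusters were almost evenly matched at birth. Reads of the identical miR-29b-3p that matched both clusters are in neither total, so the balance is mainly that of Mir29a and Mir29c. The chromosome 6 genes together had 3645 counts against 3761 for the chromosome 1 genes in pup 3, and 2596 against 2696 in pup 1. The chromosome 6 share was 49.2% in pup 3 (exact Clopper-Pearson interval 48.1 to 50.4) and 49.1% in pup 1 (47.7 to 50.4). Each interval holds an even split, so a difference between the clusters was not detectable at this depth in either pup.

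The log2 ratio of the chromosome 6 over the chromosome 1 cluster was -0.05 in pup 3 and -0.05 in pup 1, with a mean of -0.05 ± 0.0066 (SD, n = 2 pups). Chromosome 1 was higher in 2 of 2 pups, by more than the spread between pups but within counting error. An exact sign-flip permutation test over the 2 pups, two-sided, gave p = 0.5, the smallest it can give with 2 libraries. The counting interval of the ratio ran from 0.926 to 1.01 in pup 3 and from 0.912 to 1.02 in pup 1.

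The balance rested on Mir29a and Mir29c. Mir29a alone made up 49.0% of family counts in pup 3 and 48.4% in pup 1, and Mir29c 50.2% in both pups. The log2 ratio of Mir29a over Mir29c was -0.03 in pup 3 (counting interval -0.10 to 0.03) and -0.05 in pup 1 (-0.13 to 0.03), with a mean of -0.04 ± 0.014 (SD, n = 2 pups; exact sign-flip permutation test, two-sided, p = 0.5). Adapter ligation and PCR do not capture all small RNAs equally, so a ratio of 2 genes also holds any difference in their capture, whose part was not tested.

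The miR-29b copies were not evenly matched in both pups. Mir29b-1 held 22.0% of the counts of the 2 copies in pup 3 (exact Clopper-Pearson interval 12.3 to 34.7) and 46.5% in pup 1 (34.5 to 58.7). The log2 ratio of Mir29b-1 over Mir29b-2 was -1.78 in pup 3 and -0.20 in pup 1, a mean of -0.99 ± 1.12 (SD, n = 2 pups; exact sign-flip permutation test, two-sided, p = 0.5). The spread between pups exceeded the mean, so no difference between the copies held over both pups. Without pup 3 the mean ratio is the -0.20 of pup 1, and without pup 1 it is -1.78.

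**Figure D2:**
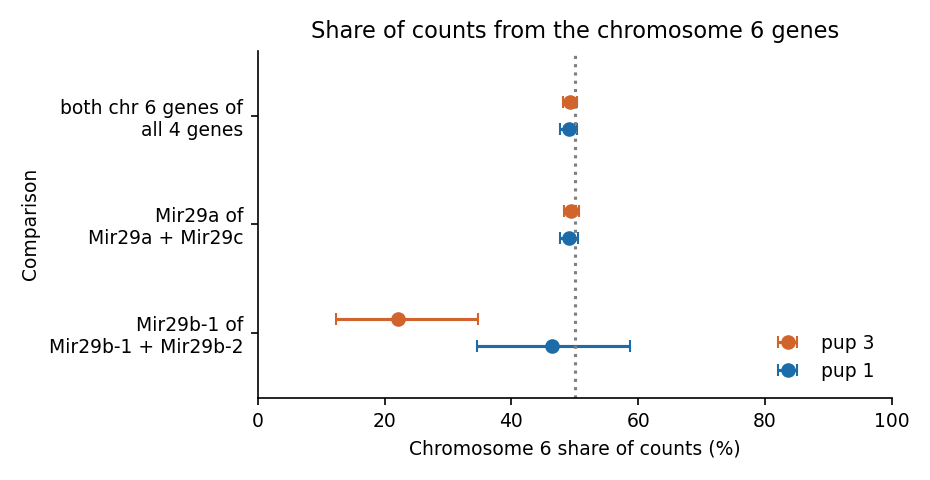
Share of counts that came from the chromosome 6 genes, in percent, for the whole clusters, for Mir29a against Mir29c and for Mir29b-1 against Mir29b-2, in pup 3 and pup 1. Points are single libraries, bars exact Clopper-Pearson 95% intervals, and the dotted line an even split. The upper rows lie between 49.1% and 49.4%, while Mir29b-1 lies at 22.0% in pup 3 and 46.5% in pup 1.

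Within each cluster, the upstream miR-29b copy gave far fewer counts than its neighbour. Mir29a had 279 times the counts of Mir29b-1 in pup 3 and 77.7 times in pup 1. Mir29c had 80.8 times the counts of Mir29b-2 in pup 3 and 69.9 times in pup 1. On the log2 scale the gap averaged 7.16 ± 1.28 on chromosome 6 and 6.21 ± 0.15 on chromosome 1 (SD, n = 2 pups each).

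The miR-29b share of cluster counts was 0.357% on chromosome 6 and 1.22% on chromosome 1 in pup 3, and 1.27% and 1.41% in pup 1. These shares leave out any read of the identical miR-29b-3p strand that matched both copies, and how many such reads there were was not tested. The strands left with a sequence of their own are miR-29b-1-5p, of 22 bases, and miR-29b-2-5p, of 25 bases. Counts per gene do not separate the arms. The low miR-29b counts are therefore no measure of miR-29b abundance.

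Whether low counts went with identical strands was described over the 916 genes of the tables that had a mature sequence in RefSeq. Of 53 genes with an identical strand elsewhere for some but not every listed arm, the class of Mir29b-1 and Mir29b-2, 41 were detected, with a median of 159 CPM and a range of 3.65 to 4738 CPM. Of those 41, 2 lay below Mir29b-1 and 6 below Mir29b-2, a count that includes Mir29b-1. Of 34 genes with an identical strand elsewhere for every listed arm, 7 were detected and 22 had no count in either pup. Mir29a and Mir29c are in the class of 829 genes with no listed strand identical to that of another gene. Of these 323 were detected, with a median of 181 CPM, and 106 lay above both Mir29a and Mir29c.

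The tables held 53 pairs of genes with an identical listed strand. Both members were detected in 20, 1 member in 9, and 18 pairs had 0 counts throughout. Among the 20, which were chosen by their level, the miR-29b pair had the second lowest summed level, 12.0 CPM, against a median of 844 CPM. Mir125b-1 and Mir125b-2, which also encode an identical strand on separate chromosomes, averaged 2537 and 2520 CPM. Mir7-1 and Mir7-2 averaged 416 and 312 CPM.

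The near-even split of Mir29a and Mir29c was set beside other genes with a common seed. Among the 916 genes with a RefSeq mature sequence, 147 pairs of detected genes on different chromosomes had the same seed on the same arm. Detected genes without a listed strand could not enter, so other near-even pairs may be missing. Over these pairs the size of the mean log2 ratio had a median of 3.05, and 26 pairs (17.7%) lay within 2-fold. The Mir29a and Mir29c pair, at 0.04, was second in order, after Mir125b-1 and Mir125b-2 at 0.01. The Mir29b-1 and Mir29b-2 pair stood 26th at 0.99, Mir29a with Mir29b-2 125th at 6.17, and Mir29b-1 with Mir29c 137th at 7.21. The pairs overlap in their genes, so these places are a description of the 2 libraries. Some pairs hold genes with an identical strand elsewhere, which Mir29a and Mir29c do not have. Reads of such a strand that matched several genomic places went to no gene, and their part in the gaps was not tested.

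**Figure D3:**
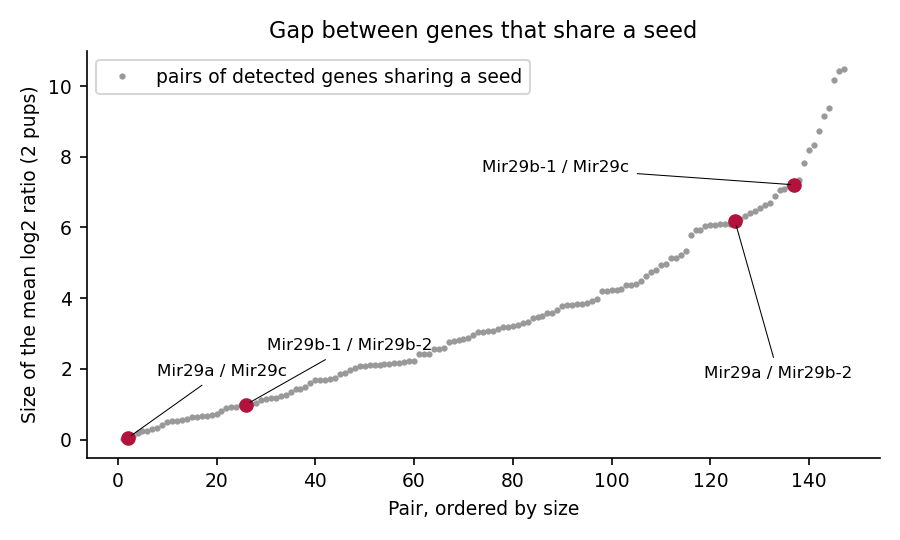
Size of the mean log2 ratio over 2 pups for 147 pairs of detected genes that lie on different chromosomes and have the same seed, in ascending order. Only genes with a RefSeq mature sequence could enter. Red points are miR-29 pairs: Mir29a with Mir29c is near 0, and both pairs of a miR-29b copy with Mir29a or Mir29c exceed 6.

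Mir29a and Mir29c stood above the middle of the detected genes, at ranks 136 and 134 by mean level over all 1973 genes, against a median level of 178 CPM for detected genes. Mir29a ranked 129th in pup 3 and 141st in pup 1, and Mir29c 127th and 139th. Mir29b-2 ranked 323rd in pup 3 and 334th in pup 1, and Mir29b-1 416th and 341st. By distance of log2(CPM + 1) over the 2 libraries, Mir185 lay nearest to both Mir29a and Mir29c, at 612 CPM in pup 3 and 560 CPM in pup 1, with Mir28a and Mir3099 the other two for both. The genes nearest to Mir29b-2 were Mir211, Mir3097 and Mir3081, and those nearest to Mir29b-1 were Mir7019, Mir7226 and Mir196a-2, which averaged 3.95 to 8.08 CPM. With 2 libraries, such nearness is a likeness in level only.

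**Figure D4:**
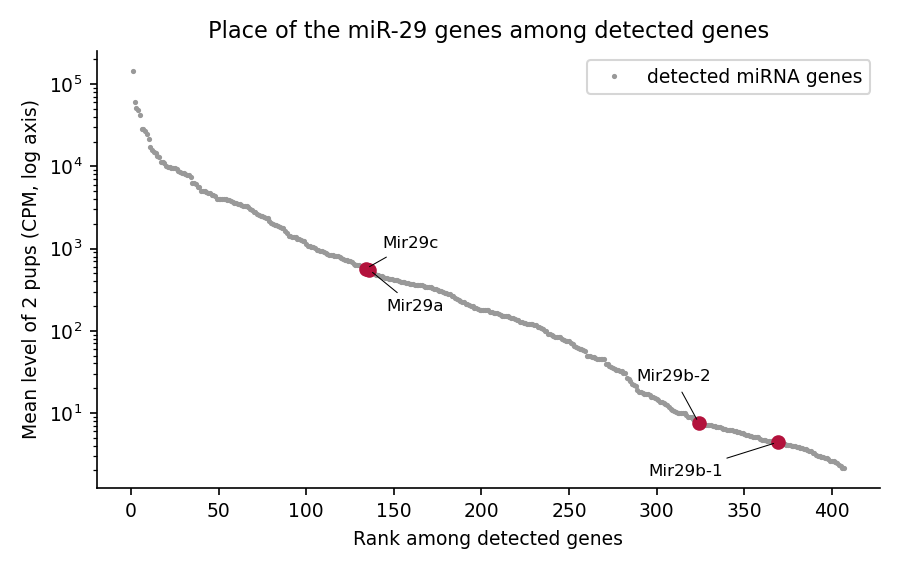
Mean level of the 407 detected miRNA genes in CPM on a log axis against their rank. The miR-29 genes are in red: Mir29c and Mir29a at ranks 134 and 136, Mir29b-2 at 324 and Mir29b-1 at 369.

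Other miRNAs known to rise with neural maturation were mostly more abundant than the miR-29 genes. Of 22 listed genes 20 were detected, 15 averaged above both Mir29a and Mir29c, and 7 below both, with a median over the list of 1163 CPM. The highest were Mir26b at 17107 ± 3881 CPM, Mir125a at 11357 ± 4682 CPM, the neuronal Mir137 at 11351 ± 16.5 CPM and the neuronal Mir129-2 at 3695 ± 381 CPM (SD, n = 2 pups each). Of 21 listed progenitor and pluripotency genes 17 were detected, 7 averaged above both Mir29a and Mir29c and 14 below both, with a median of 111 CPM. Mir17, Mir93, Mir106b and Mir20a of the proliferation-linked clusters led them, at 9681, 5030, 4768 and 4004 CPM. The oligodendrocyte miRNAs lay on both sides of Mir29a and Mir29c, with Mir219a-2 at 842 ± 51.8 CPM, Mir338 at 752 ± 33.6 CPM and Mir219a-1 at 118 ± 4.09 CPM (SD, n = 2 pups each). Over all 1973 genes, of which 407 were detected, Mir29c and Mir29a ranked 134 and 136 by mean level. Some listed genes, Mir219a-1 among them, have a strand identical to that of another gene, which Mir29a and Mir29c do not have. Reads of such a strand that matched several genomic places went to no gene, and their part in these levels was not tested. In bulk tissue, fewer cells of a type and less RNA per cell cannot be told apart. Levels of different genes also differ in capture, and mature strands are of nearly equal length, so no length correction was made.

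The pups differed little in Mir29a, Mir29c and Mir29b-2 and by more than 2-fold in Mir29b-1. On TMM scaling, with 1 CPM added, the log2 difference of pup 3 over pup 1 was 0.29 for Mir29a (counting interval without the added CPM 0.22 to 0.36) and 0.27 for Mir29c (0.20 to 0.34). For Mir29b-2 it was 0.06 (-0.59 to 0.72). Mir29a and Mir29c thus moved together, on TMM scaling by more than counting error. The intervals take the scaling as fixed, and other scalings gave values outside them. For Mir29a and Mir29c these were 0.16 and 0.14 on library totals, and 0.38 and 0.36 on DESeq2 size factors.

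Their differences were ordinary for these libraries. Over the 407 detected genes the median size of the difference was 0.28, and 216 and 201 genes had a smaller one than Mir29a and Mir29c. Of 80 detected genes within 2-fold of the level of Mir29a, 33 differed by more.

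Mir29b-1 was lower in pup 3, with a log2 difference of -1.22 (counting interval -2.61 to -0.59). Of all detected genes 6.14% passed 2-fold in either direction, 5.9% lower and 0.246% higher in pup 3. Mir29b-1 was 1 of 4 family members past 2-fold, on 13 and 33 counts. With 1 library per pup no test separates animals from preparations. With 5 CPM added in place of 1 the difference was -0.67, within 2-fold.

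**Figure D5:**
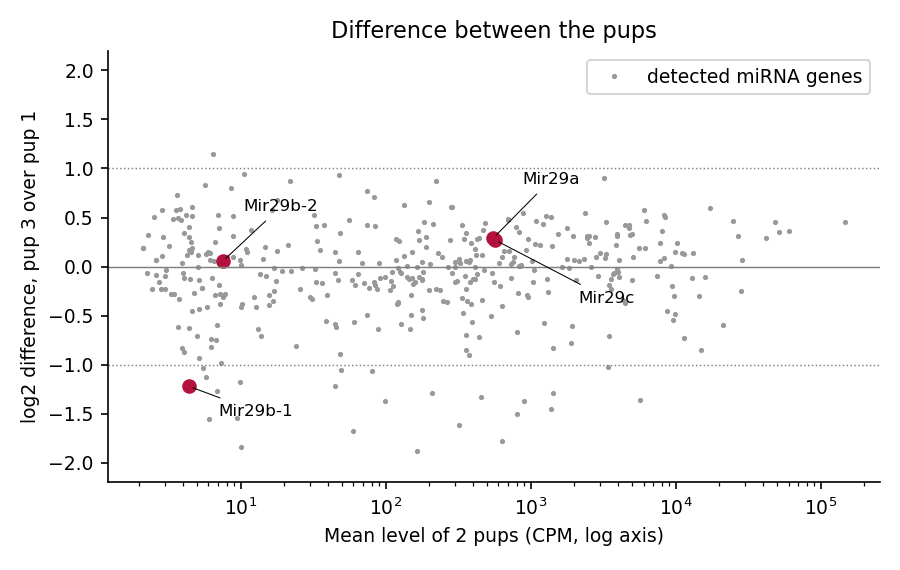
Log2 difference of pup 3 over pup 1 (TMM scaling, 1 CPM added) against mean level in CPM on a log axis for 407 detected genes, with the miR-29 genes in red. Dotted lines mark 2-fold, and 25 genes lie beyond them. Mir29a and Mir29c lie at 0.29 and 0.27, Mir29b-2 at 0.06 and Mir29b-1 at -1.22.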

How the data were processed

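Read counts per miRNA gene were deposited by the authors as whole numbers, in a separate table for each library, neither normalized nor pooled. Assembly mm10 and annotation M4 are named in the deposited text files, and the aligner is not given in the sources used here. Own-strand counts were used. Rows that name no gene (54.9% of the reads in pup 3, 58.3% in pup 1) stayed out of totals; for both pups they include reads at several genomic places, 39.4% and 37.9%. Gene IDs were matched without version to GENCODE M21 (1894 of 1973 genes). The tables hold an older version of the Mir29b-1 and Mir29b-2 IDs than M21, so their counted intervals may differ from those given. Mature sequences are from RefSeq (GRCm38.p6), matched by symbol.

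Ratios of single genes had 0.5 counts added. The difference between pups used edgeR 4.0.16 TMM effective sizes over 412 genes (ratio of pup 3 over pup 1 1.16), without a test. Folding used RNAfold 2.7.2. Scaling and fold calls were checked on simulated data with counting error only, for genes of higher counts than the miR-29b copies. That check does not cover the fold call of Mir29b-1. Alternatives covered strand, CPM denominator, scaling (library totals, DESeq2 1.42.0 size factors), pseudocount, filters and each library left out. The members, lists, seed pairs and classes of identical strands were chosen with earlier results of these data known. Named genes are the 4 members, the 3 nearest to each in level and up to 4 of highest mean level of a list. Mir6338, Mir125b-1, Mir125b-2, Mir7-1, Mir7-2, the Mir124a copies and the genes under other observations were named after their values were seen.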

Additional observations from a re-analysis of the deposited data

How the results depend on the processing

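The 3 log2 ratios between chromosome 6 and chromosome 1 genes kept their sign under each alternative run. The clusters ranged from -0.05 to -0.04 and Mir29a over Mir29c from -0.05 to -0.03. Mir29b-1 over Mir29b-2 ranged from -1.78 to -0.20, its ends being the single libraries. Most of these alternatives could not change a sign. Opposite-strand counts were 0, an equal pseudocount keeps the order of 2 genes, and the single libraries already agreed in sign. Of 64 alternative values 53 were labelled the same as the main value. This meant the same sign for ratios, within the SD for the family share and levels, and a similar number for counts of genes. For pup differences it meant within the counting interval and on the same side of 2-fold. A single library of 2 always lies within the SD of their mean, so some of the 53 could not fail. With all reads in the tables as denominator the family share was 0.0477% in place of 0.113%, by construction; leaving out a library gave 0.108% to 0.119%. The count of 25 genes past 2-fold was 43 with no filter beyond 1 count and 16 at 10 CPM, where both miR-29b copies fall out, since fewer genes are tested. All 4 members were detected at 1 CPM. On library totals the median of detected genes was -0.14, against -0.01 on TMM scaling; relative to -0.14 Mir29a, Mir29b-2, Mir29c and Mir29b-1 stood at 0.30, 0.08, 0.28 and -1.18. At 13 to 46 counts the miR-29b values are limited by depth. No paired analysis was possible because no second group of samples exists to pair with the first; the ratios of genes above are taken within each pup.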

Other observations

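Mir29b-1 was 1 of 10 detected genes with a strand identical to that of another gene that were more than 2-fold lower in pup 3. They were Mir181b-1, Mir181b-2, Mir103-2, Mir103-1, Mirlet7c-2, Mir138-2, Mir16-2, Mir138-1, Mirlet7a-1 and Mir29b-1, with log2 differences from -1.84 to -1.22. By class, 9 of 41 genes with an identical strand for some arm (22.0%) and 1 of 7 with one for every arm passed 2-fold lower. This was against 11 of 323 with none listed (3.41%) and 5.9% of all 407 detected genes. Mir181b-1 and Mir181b-2, Mir103-1 and Mir103-2, Mir138-1 and Mir138-2, and Mirlet7a-1 and Mirlet7c-2 have an identical strand with each other. Such partners were counted as separate genes, so these shares are not of independent genes. The median log2 difference was -0.14 in the first class, -0.10 in the second and 0.01 in the third. The share of reads at several genomic places was 39.4% in pup 3 and 37.9% in pup 1. Its part in these differences was not tested, and Mir29b-2, in the first class, did not share the decrease, with 46 counts in pup 3 and 38 in pup 1.

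Tissue markers were checked beside the miR-29 genes, and of all 1973 genes 407 were detected. Detected were 3 of 3 oligodendrocyte, 6 of 7 vessel and connective tissue, 3 of 3 erythroid and 4 of 4 counted leukocyte and microglia genes. Of 5 counted muscle genes 1 was detected and 3 had 0 counts in both pups. Whether reads of these muscle genes were among those at several genomic places was not tested, so their counts do not show absence. Their summed levels were 1649, 71369, 308, 725 and 159 CPM in pup 3 and 1776, 61032, 498, 1015 and 174 CPM in pup 1. Mir126a of vessels led with 51803 CPM. The miR-29 genes are also known in connective tissue and vessel wall, and the part of such cells in their level was not tested.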
